A study of Mus musculus with 24 samples.

Results

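The comparison described here set 4 pancreas arrays from mice given the highest dose of a phenolic extract against 4 arrays from mice given plain water, out of 24 arrays in 6 groups of 4. Arrays were chosen by their titles, and a probe entered when its detection p was below 0.05 on 4 or more arrays of the 24, which kept 15328 of 45281 probes; 13086 of these had 1 gene symbol and covered 9164 genes. All mice were male C57BL/6J, bought at 3 weeks of age, housed singly at 23 °C under a reversed light cycle, fed a standard diet and then, from week 3, one that was high in fat (60%), so the water group was itself fed that diet and no lean group was compared. The extract, called PAE here as in the labels, holds phenolic compounds of an alcohol-free fermented berry beverage (AFFB, 70% blackberry and 30% blueberry) and was given in place of drinking water. The high dose came to 18.9 mg/kg daily; the sample titles call it 3X and the protocol 2X, and it is written PAE 3X below. The other groups received PAE 1X (9.0 mg/kg daily), PAE 0.1X (1.1 mg/kg daily), AFFB itself (8.4 mg/kg daily) or sitagliptin, a diabetes drug that blocks breakdown of incretin hormones, at 150 mg/L in the drinking water. RNA came from frozen whole pancreas after 12 weeks of the high-fat diet, from 4 samples of the 12 mice a group held. The labels number the samples separately without saying outright that each array was 1 mouse, so the tests cover only variation among these samples, which may be technical.

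The pancreas is mostly acinar cells, which make digestive enzymes on rough endoplasmic reticulum (ER) and store them as zymogens. Such cells depend on the translocon, which threads new proteins into the ER, on chaperones and oxidoreductases that fold them, and on the unfolded protein response, which adjusts these parts to the load. Islets, ducts, fat, vessels and blood contribute smaller shares of the RNA. In bulk tissue, fewer cells of a type and less RNA per cell cannot be told apart.

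Across the 8 arrays, 25.8% to 28.8% of all probes were detected, and the median unnormalized signal lay between 83.0 and 93.5. Values below are log2 of the background-corrected, quantile normalized signal, and a difference of 1 is a 2-fold change. Scaling arrays to a common median in place of quantile normalization moved the median difference of all genes from 0.02 to 0.20, a shift of 0.18, so small differences are read against that median. Arrays water 4, PAE 3X 2 and PAE 3X 3 stood apart in clock output genes: Dbp, a transcription factor with strong daily rhythm, was at 11.02, 11.03 and 11.12 there, against 5.75 to 7.63 on the other 5 arrays. The calls, the 7 genes that passed and the medians of the gene lists are given with these arrays and without the 5 such arrays of the series.

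The tissue label fitted its markers. The elastase Cela1 averaged 14.33 in water and 14.31 in PAE 3X, the amylase Amy2a5 14.32 and 14.28, and 27 of 33 listed enzymes and zymogens were kept. The insulin gene Ins2 was at 12.90 and 12.23, so islet RNA was present. Of 13 listed skeletal muscle genes 1 was kept, and Acta1, Myh4 and Ckm were not; of 14 T and NK cell genes 2 were kept.

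In PAE 3X, 6 genes rose (0.0391% of probes tested) and 1 fell (0.00652%) relative to water. Those that rose were Reep6, Slamf9, Moxd1, Slc7a3, Azgp1 and Fbp2. Reep6 shapes ER membranes, and Slamf9 is a receptor of the SLAM family found on immune cells. Moxd1 sits in the ER and is a relative of the copper monooxygenases, and Slc7a3 is a carrier of cationic amino acids. Azgp1 is a secreted glycoprotein linked to fat mobilization, and Fbp2 is the muscle form of fructose bisphosphatase. The gene that fell was Lpl, the lipase that frees fatty acids from circulating lipoproteins. These 7 of 15328 probes (0.0457%) passed an adjusted p under 0.05 in limma's fit of all 24 arrays, and the arrays of the groups did not overlap for any of them, as for 4.68% of all probes (2.53% higher and 2.15% lower). At an unadjusted p under 0.05 in limma, 436 probes were higher and 335 lower. Of genes taken by 1 probe each, 489 of 9164 (5.34%) reached it, a share near the 0.05 that such a threshold gives when nothing differs. Under median scaling 16 probes passed, 16 higher and 0 lower.

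Without the 5 arrays of high clock output (these 3, PAE 1X 4 and sitagliptin 4), which left 2 PAE 3X and 3 water arrays, 0 probes passed in limma (smallest adjusted p = 0.0518; 1131 at an unadjusted p under 0.05). The differences there were 2.00 for Reep6, 1.25 for Slamf9, -0.92 for Lpl, 0.68 for Slc7a3, 1.00 for Fbp2 and 0.93 for Azgp1, and the measured Moxd1 means differed by 1.07. With the clock output list mean of each array as a covariate 28 passed, 18 higher and 10 lower, among them all 7. Dropping the 5 arrays also changed the groups on the first principal component, the main axis of variation among all arrays (28.4% of variance). PAE 3X 1 and 4, which stayed, were at 12.73 and 19.03, and PAE 3X 2 and 3, which were dropped, at -14.53 and -20.66. Water 1, 2 and 3 were at -5.89, -11.34 and -7.08. Values without the clock arrays therefore do not isolate clock state.

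**Figure D1:**
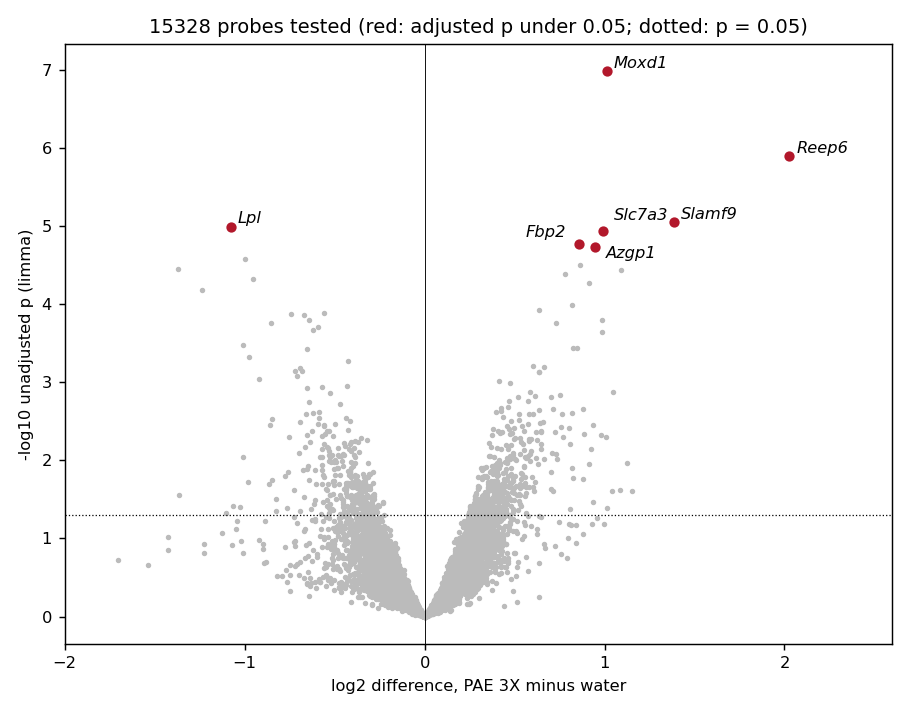
Each point is 1 of 15328 probes, with the log2 difference PAE 3X minus water on the x axis and -log10 of limma's unadjusted p on the y axis; red points passed after adjustment. 6 red points lie to the right, led by Moxd1 and Reep6, and Lpl alone lies to the left.

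Moxd1 was detected on 0 of 4 water arrays and 4 of 4 PAE 3X arrays. Its levels were 4.35, 4.24, 4.38 and 4.44 in water and 5.30, 5.31, 5.36 and 5.49 in PAE 3X. The groups lay apart and each had a narrow spread. All water values lay below 4.55, the lowest signal called detected on any array, so their spread is that of background. AFFB and sitagliptin, detected on 0 of 4 arrays, also enter the SE and p. Since water was not above background, the change is a bound: at least 1.63-fold higher (limma adjusted p = 0.00161). The fitted difference, between measured means of 4.35 and 5.36, was 1.01 (SE 0.14). Of its copper monooxygenase relatives, Pam, which amidates peptide hormones, differed by -0.25 (SE 0.17), Ddc, which makes dopamine and was listed beside them, by 0.26 (SE 0.31), and Dbh and Moxd2 were not kept.

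Reep6 had the largest change of the 7. It was at 7.11, 6.49, 6.81 and 6.14 in water and at 8.84, 8.42, 8.64 and 8.76 in PAE 3X. Every PAE 3X array was above every water array, and the rise was 4.07-fold (log2 difference 2.03, SE 0.32; limma adjusted p = 0.00993). Among ER-shaping proteins, Reep6 included, 6 of 12 measured members were higher, with a median difference of -0.02 (-0.09 without the clock arrays), and Reep5, Reep3 and Reep4 differed by -0.26, -0.30 and 0.28 with SEs of 0.20 to 0.27. Reep6 was the only one of the 12 to pass.

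Slamf9 was at 4.86, 4.75, 5.06 and 4.85 in water and at 5.99, 6.54, 6.25 and 6.29 in PAE 3X. It was dim but detected on all 8 arrays, and it rose 2.61-fold (1.39, SE 0.25; limma adjusted p = 0.0361). Slamf6, the other SLAM receptor kept of 9 listed, differed by 0.01 (SE 0.15). The macrophage and myeloid list, of the cells in which Slamf9 is known, had 4 of 13 kept members higher and a median difference of -0.10 (-0.02 without the clock arrays); its array means ran from 5.47 to 5.94 in water and from 5.31 to 5.77 in PAE 3X. Adgre1, a defining macrophage marker, was not kept. With an offset of 50 or with no background correction Slamf9 lost its call (adjusted p = 0.0539 and 0.0700).

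Azgp1 was at 7.80, 8.38, 8.32 and 8.13 in water and at 8.97, 8.98, 9.24 and 9.23 in PAE 3X. It rose 1.93-fold (0.95, SE 0.18; limma adjusted p = 0.0413). A second Azgp1 probe differed by 0.74 (SE 0.38) and did not pass, although its arrays did not overlap either. Lpl moved the other way, from 8.23, 8.83, 8.84 and 8.40 in water to 7.70, 7.20, 7.35 and 7.74 in PAE 3X. It fell 2.11-fold (-1.08, SE 0.19; limma adjusted p = 0.0361), but under median scaling the difference was -0.70 and the call was lost (adjusted p = 0.359). Apart from these, 17 other measured members of the lipase and triglyceride list did not pass: Apoe, the lipoprotein ligand, was at -0.50 (SE 0.19), Pnpla2, which starts the breakdown of stored fat, at -0.27 (SE 0.16), and Lmf1, which matures Lpl, at -0.21 (SE 0.13).

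Lpl is also a gene of fat cells, and fat cell markers varied between samples. The adipocyte list, which holds Lpl itself, had 1 of 11 kept members higher and a median of -0.26 (-0.38 without the clock arrays), with array means of 5.29 to 6.50 in water and 5.21 to 5.64 in PAE 3X; Plin1, Fabp4 and Cidec were not kept. Adipoq was at 4.55, 5.88, 7.24 and 4.40 in water and at 4.49, 4.65, 4.34 and 6.58 in PAE 3X. Among water arrays both Adipoq and Lpl were highest on water 3, and among PAE 3X arrays both were highest on PAE 3X 4. For Lpl these were near ties. It was at 8.84 on water 3 and 8.83 on water 2, and at 7.74 on PAE 3X 4 and 7.70 on PAE 3X 1. The part of fat cells in the Lpl difference was not tested.

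Slc7a3 was at 8.07, 7.77, 8.10 and 7.48 in water and at 8.73, 9.21, 8.85 and 8.59 in PAE 3X. It rose 1.99-fold (0.99, SE 0.18; limma adjusted p = 0.0361). Its second probe, detected on 2 water arrays and 0 PAE 3X arrays, differed by -0.23 (SE 0.17). Fbp2 was at 6.08, 6.40, 6.02 and 6.31 in water and at 6.85, 7.15, 6.76 and 7.48 in PAE 3X, a 1.82-fold rise (0.86, SE 0.16; limma adjusted p = 0.0413). Fbp1, the liver form of the same enzyme, differed by -0.34 (SE 0.14) without passing. Pck1, the entry enzyme of gluconeogenesis, was not kept.

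Promoter windows from RefSeq (GRCm38.p6, from 250 bases before to 50 after the annotated start) were held for 4 of the 7 genes that passed. These 4 are shown, and whether the genes share a regulator was not tested. Capitals mark the E-box CACGTG, the site of clock and other basic helix-loop-helix factors, which reads the same on both strands. It was in 2 of the 4 windows, Slamf9 and Fbp2, and in 7.15% of 32851 windows of the same length. Among the next 15 probes on each side it was in 2 of 17 windows on the higher side and 1 of 18 on the lower. The antioxidant response element, TGACNNNGC on either strand, was in 1 of the 4 windows (Fbp2), in 12.4% of all windows, in 6 of 24 windows of the unfolded protein response list and in 6 of 17 of the translocon list. The element of ATF4 with C/EBP factors and the ER stress element, given below, were in 0 of the 4. A match is a description of letters only.
Moxd1 (chr10:24223267-24223566, plus strand): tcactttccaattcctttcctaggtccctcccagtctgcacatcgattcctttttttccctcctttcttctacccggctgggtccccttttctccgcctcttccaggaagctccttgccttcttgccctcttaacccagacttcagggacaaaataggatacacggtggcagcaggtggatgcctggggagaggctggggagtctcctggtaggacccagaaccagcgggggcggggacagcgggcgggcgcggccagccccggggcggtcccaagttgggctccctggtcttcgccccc
Slamf9 (chr1:172475110-172475409, plus strand): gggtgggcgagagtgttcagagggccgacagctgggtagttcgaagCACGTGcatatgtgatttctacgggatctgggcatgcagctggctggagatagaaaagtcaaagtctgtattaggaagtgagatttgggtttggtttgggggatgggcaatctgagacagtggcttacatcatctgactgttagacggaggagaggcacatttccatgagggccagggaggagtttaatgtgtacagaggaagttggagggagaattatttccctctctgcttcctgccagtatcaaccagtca
Fbp2 (chr13:62858351-62858650, minus strand): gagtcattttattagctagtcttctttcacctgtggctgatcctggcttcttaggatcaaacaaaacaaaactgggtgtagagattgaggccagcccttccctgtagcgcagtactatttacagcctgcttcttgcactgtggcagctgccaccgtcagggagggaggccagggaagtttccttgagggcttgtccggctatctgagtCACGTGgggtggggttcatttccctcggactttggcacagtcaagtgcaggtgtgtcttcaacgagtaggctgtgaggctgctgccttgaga
Azgp1 (chr5:137981271-137981570, plus strand): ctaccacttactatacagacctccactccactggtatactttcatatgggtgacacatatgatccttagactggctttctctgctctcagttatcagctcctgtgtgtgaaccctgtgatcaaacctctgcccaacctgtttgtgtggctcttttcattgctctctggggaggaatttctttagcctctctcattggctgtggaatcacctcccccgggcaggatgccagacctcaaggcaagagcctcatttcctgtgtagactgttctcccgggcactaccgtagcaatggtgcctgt

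The lower doses and the other treatments were set beside these values; all of these differences share the same water arrays. Moxd1 was above background on 2, 4 and 4 of 4 arrays at PAE 0.1X, 1X and 3X, and on 0 arrays of water, AFFB and sitagliptin. Its mean was 4.98 at PAE 1X and 5.36 at PAE 3X. Reep6 differed from water by 1.19, 1.94 and 2.03 at the 3 doses, by 0.84 with AFFB and by 0.22 with sitagliptin. Reep6 ranged from 7.11 to 8.62 on single PAE 0.1X arrays and also passed at PAE 1X against water (limma adjusted p = 0.0390).

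Slamf9 differed from water by 0.44, 1.12 and 1.39 at the 3 doses, by 0.19 with AFFB and by 0.03 with sitagliptin. Lpl differed by -0.31, -0.68 and -1.08, by -0.51 with AFFB and by -0.35 with sitagliptin. Fbp2 differed by 0.39, 0.55 and 0.86, by 0.40 with AFFB and by -0.03 with sitagliptin. Slc7a3 was at 0.86, 0.86 and 0.99 at the 3 doses, and Azgp1 at 0.67, 1.01 and 0.95. With AFFB both were at 0.56, and with sitagliptin at -0.11 and 0.01.

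**Figure D2:**
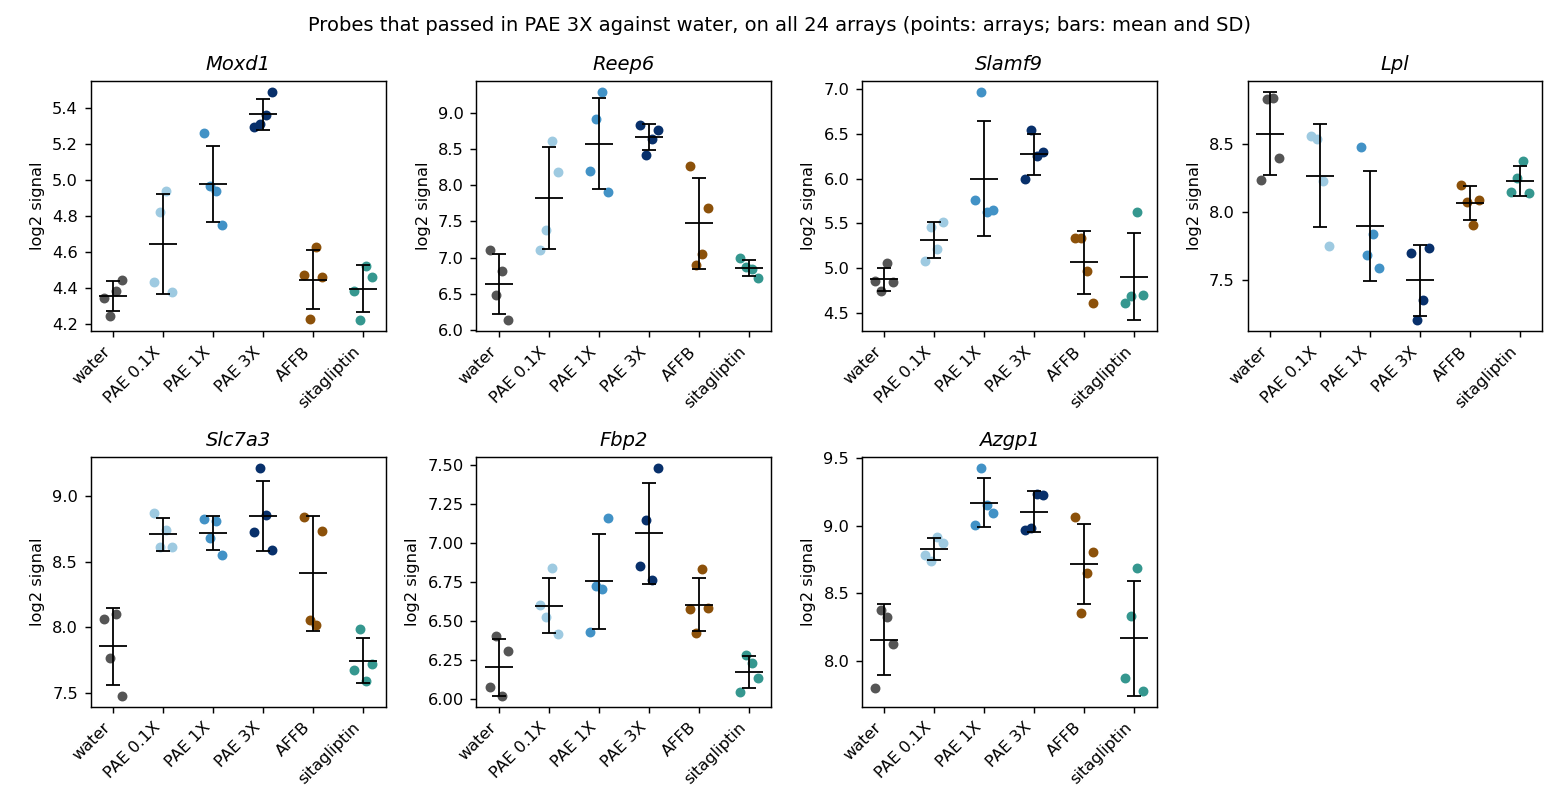
Log2 signal of the 7 genes that passed, with 1 point per array in each of the 6 groups and bars for mean and SD of 4 arrays. PAE 3X arrays lie above every water array for 6 genes and below every water array for Lpl.

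Tested directly, PAE 3X and PAE 1X differed at 0 of 15328 probes in limma (0%; 321 at an unadjusted p under 0.05). For the 7 genes the difference PAE 3X minus PAE 1X ran from -0.40 for Lpl (SE 0.19) to 0.39 for Moxd1 (SE 0.14), and for Reep6 it was 0.09 (SE 0.32). Against PAE 0.1X 0 probes passed (0%; 824 at an unadjusted p under 0.05; smallest adjusted p = 0.184). With a median SE of 0.17, small differences between doses were not detectable at 4 arrays a group.

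Against AFFB, the whole beverage at a lower dose, 4 genes were higher and 1 lower in PAE 3X (5 of 15328 probes, 0.0326%). Lamb3, a laminin chain of epithelial basement membrane, was higher by 1.18 (SE 0.17), and Moxd1, detected on 0 of 4 AFFB arrays, was at least 1.59-fold higher (limma adjusted p = 0.00405 for both; measured Moxd1 means 4.45 and 5.36). The serotonin transporter Slc6a4 was higher by 0.92 (SE 0.16) and the caspase Casp6 by 0.76 (SE 0.14). The small membrane protein Smim24 was lower by 1.46, from a mean of 8.51 to 7.05 (limma adjusted p = 0.0370 for each of these 3). The Casp6 probe was detected on 3 of 4 AFFB arrays, and a brighter Casp6 probe did not pass. The 2 groups differed in more than dose, since AFFB is the beverage and PAE its extract. In limma's fit of these 2 groups alone 0 probes passed (842 at an unadjusted p under 0.05; smallest adjusted p = 0.108).

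Lamb3 came nearest to passing among the other genes higher than in water. It was at 6.05, 5.67, 5.66 and 5.72 in water and at 6.76, 6.94, 6.46 and 6.42 in PAE 3X, with no overlap (0.87, SE 0.17; limma adjusted p = 0.0514). Ndrg2, a differentiation-associated gene, was at 5.46, 5.26, 5.39 and 4.96 in water and at 6.90, 5.97, 5.81 and 6.77 in PAE 3X (1.09, SE 0.22; adjusted p = 0.0514). Its PAE 3X values split, with arrays 2 and 3, those of high clock output, the lower pair; without the 5 clock arrays its difference was 1.47.

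Of the next 15 probes in order on the higher side, 0 passed. All 15 had arrays that did not overlap, as had 2.53% of all probes on that side. They were ranked by p on these same arrays, so the lack of overlap is no separate support. Ptges3l was at 0.78, Igdcc4 at 0.82 and Mrpl33, a mitochondrial ribosomal protein, at 0.63. Mat1a, which makes the methyl donor S-adenosylmethionine, was at 9.90, 9.53, 9.87 and 9.91 in water and at 10.80, 10.89, 11.20 and 10.25 in PAE 3X (0.98, SE 0.23). Ebpl, Thsd4 and Cadps2, which primes dense-core vesicles, lay between 0.63 and 0.85. Igdcc4 and Thsd4 were detected on 2 and 1 of the 4 water arrays, so their water values lay near background. Arhgef25, Tspan6 and Nt5dc2 were detected on 0 water arrays and were at least 1.71-fold, 1.20-fold and 1.33-fold higher.

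A pair of these followed the clock arrays within PAE 3X. Mcm6, a subunit of the replicative helicase that was detected on 1 of 4 water arrays, was at 5.99 and 6.14 on PAE 3X 2 and 3. On PAE 3X 1 and 4 it was at 5.01 and 4.69. Gjb2, the gap junction protein connexin 26, was at 10.21 and 10.20 against 9.43 and 9.39. Water 4, also high in clock output, was not high in either (Mcm6 4.41, Gjb2 9.17), and without the 5 clock arrays the differences fell to 0.35 and 0.27; the part of clock state in them was not tested.

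On the lower side the next 15 probes stood for 14 genes. Arrays did not overlap for 14 of these probes, as for 2.15% of all probes on that side. These too were ranked by p on the same arrays. Cobl, an actin nucleator, was at 5.65, 5.58, 5.58 and 5.75 in water and at 4.52, 4.47, 4.95 and 4.63 in PAE 3X. The measured means lay 1.99-fold apart (SE 0.19 on the log2 scale, limma adjusted p = 0.0512). Cobl was detected on 1 of 4 PAE 3X arrays, so background limits that fold. Rprm, a gene of p53-linked cell cycle arrest, was at 5.46, 6.21, 6.71 and 6.06 against 4.42, 5.13, 4.74 and 4.67 (-1.37, SE 0.27; adjusted p = 0.0514). Gcnt1, which branches O-glycans, was at 7.09, 7.18, 6.95 and 7.03 against 5.60, 6.07, 5.78 and 5.86 (-1.24, SE 0.26; adjusted p = 0.0679). All 3 were lower on every PAE 3X array without passing.

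Among the rest of that side, the membrane estrogen receptor Gper1 was at -0.95, the growth factor receptor Kit at -1.01 and the GTPase Nras at -0.64. Other Nras probes were at 0.16 and 0.02, so the gene's probes disagreed. Oxct1, which lets tissues burn ketone bodies, was at -0.75 (SE 0.16), Kdsr of sphingolipid synthesis at -0.59 and the complex I subunit Ndufs7 at -0.42 (SE 0.11). The 2 probes of Iyd, which recovers iodide from iodotyrosines, were at -0.67 and -0.65. The 3 Gde1 probes, for a glycerophosphodiester phosphodiesterase, were at -0.69, -0.64 and -0.92. Sh3bgrl3, Nat8f1 and Apol7a lay between -0.97 and -0.62. Other probes disagreed in size for Cobl (-0.09), Kdsr (-0.25), Igdcc4 (0.16), Ptges3l (0.07) and Ndrg2 (0.31).

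**Figure D3:**
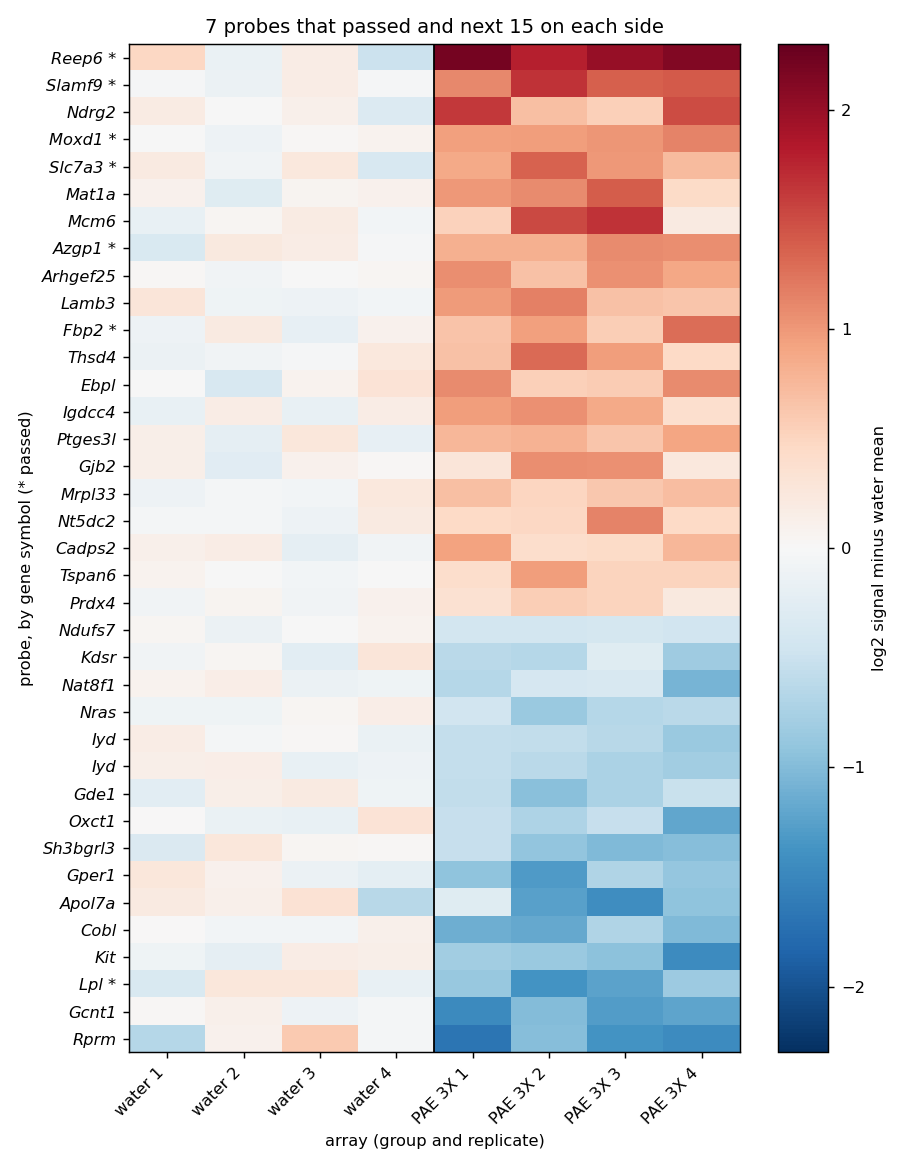
Log2 signal minus the water mean for the 37 probes of smallest p (7 passed, starred, and the next 15 on each side), with 1 column per array. The 4 PAE 3X columns keep 1 colour per row, while Mcm6 and Gjb2 are deeper on PAE 3X 2 and 3.

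Single PAE 3X arrays detected 27.0% to 28.8% of all probes and single water arrays 25.8% to 27.6%, so counts by detection are not directly comparable between directions. Of 15328 probes tested, 33 were above background on all 4 PAE 3X arrays and on 0 water arrays, of which Moxd1 passed. The reverse held for 8 of the 15328, of which 0 passed. Apart from Moxd1, the largest bounds were at least 1.71-fold higher for Arhgef25 (limma adjusted p = 0.0594) and at least 1.38-fold higher for Jdp2, a repressor of AP-1 factors (adjusted p = 0.477). Nt5dc2 was at least 1.33-fold higher. Gemin7, of the complex that assembles splicing particles, and Armc6 had bounds of at least 1.25-fold and 1.21-fold higher. On the other side the G protein subunit Gnaz and the sterol enzyme Sc5d were each at least 1.28-fold lower (adjusted p = 0.621 and 0.891) and Glb1l2 at least 1.27-fold lower. Chst15, Amy2a4 and Tsr3 had bounds of at least 1.17-fold, 1.11-fold and 1.11-fold lower; Amy2a4 has near-identical amylase copies, which its probe may not separate.

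In the lists that follow, each gene is taken by its brightest probe, and of 9164 genes 54.1% were higher in PAE 3X and 45.9% lower; under median scaling 81.1% were higher. An unadjusted p under 0.05 was reached by 3.22% on the higher side and 2.12% on the lower, and arrays did not overlap for 2.73% and 2.03%. The 7 genes above were the only list members to pass (0.0764% of genes), so the counts describe direction and size.

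Genes of ER protein folding and the unfolded protein response lay mostly above water: 22 of 25 measured members, with a median difference of 0.24 against 0.02 for all genes. None of the 25 passed and for none did the arrays separate the groups. Trib3, a pseudokinase induced under stress, was at 5.65, 6.06, 5.68 and 6.40 in water and at 6.18, 8.49, 6.96 and 6.65 in PAE 3X (1.12, SE 0.41, unadjusted p = 0.0107 in limma). PAE 3X 2 was the highest and PAE 3X 1 lay within the water range. P4hb, which forms disulfide bonds, was at 0.28 (SE 0.15), Herpud1 of ER-associated degradation at 0.36 (SE 0.20), and the sensor kinase Eif2ak3 at 0.24 (SE 0.14). The list mean of single arrays overlapped, from 8.75 to 9.23 in water and from 8.95 to 9.47 in PAE 3X. Without the 5 clock arrays 19 of 25 were higher, with a median of 0.40.

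Of the 25, 24 had a promoter window, and 8 of these held the ER stress element, a CCAAT box spaced from a CCACG, searched on both strands and found in 0.119% of all windows. Those 8 were Calr, Creld2, Dnajc3, Ero1b, Hsp90b1, Hspa5, Pdia6 and Syvn1. Hspa5, the main ER chaperone BiP, is printed as the example, with the element in capitals; it was chosen after its values were seen, at 5.18, 5.55, 5.31 and 4.67 in water and 5.53, 5.13, 5.20 and 6.21 in PAE 3X (0.34, SE 0.36). Its arrays overlapped.
Hspa5 (chr2:34771840-34772139, plus strand): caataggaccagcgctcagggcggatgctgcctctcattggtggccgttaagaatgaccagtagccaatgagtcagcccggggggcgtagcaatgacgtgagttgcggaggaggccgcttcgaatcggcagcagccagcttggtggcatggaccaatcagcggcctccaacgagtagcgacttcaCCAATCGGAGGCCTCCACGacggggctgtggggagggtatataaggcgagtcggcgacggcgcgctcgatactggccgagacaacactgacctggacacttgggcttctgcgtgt

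The translocon and secretory pathway list stood in the same direction, with members from -0.70 to 0.58 against -0.15 to 1.12 in the folding list. Of 23 measured members 18 were higher, the median was 0.22, and arrays did not overlap for 3 on the higher side and 1 on the lower. Ssr4, a subunit of the translocon-associated complex, was at 12.81, 12.76, 12.76 and 12.69 in water and at 13.45, 13.14, 13.08 and 13.45 in PAE 3X (0.53, SE 0.16, unadjusted p = 0.00309). The signal peptidase subunit Sec11c was at 0.33 (SE 0.15) and the coat protein Sec24d at 0.58 (SE 0.28). Sec62, of post-translational translocation and ER turnover, ran against the list, from 5.73, 5.45, 5.57 and 5.67 to 4.88, 5.18, 4.94 and 4.63 (-0.70, SE 0.24). The list mean was between 8.68 and 8.77 on water arrays and between 8.80 and 8.97 on PAE 3X arrays, and the median was 0.20 without the 5 clock arrays and 0.54 under median scaling.

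The list of Slc7 family carriers, which also holds the heavy chain Slc3a2, had 6 of 8 measured members higher, with a median of 0.18 (0.11 without the clock arrays). Besides Slc7a3, Slc7a7, which exports cationic amino acids, was at 4.40, 4.54, 4.29 and 5.13 in water. In PAE 3X it was at 4.88, 4.97, 5.15 and 5.99 (0.66, SE 0.20, unadjusted p = 0.00323 in limma). Its water values of 4.40, 4.54 and 4.29 lay below 4.55, the lowest signal called detected on any array. Slc3a2, the heavy chain of only some Slc7 carriers, was at 0.39 (SE 0.16) with no overlap. Slc7a2, another carrier of cationic amino acids, was at -0.22 (SE 0.16). The list mean ran from 6.21 to 6.35 in water and from 6.38 to 6.69 in PAE 3X. It includes Slc7a3, already named for being high, so this gap is no separate evidence for the other carriers. Other amino acid carriers, had 4 of 9 higher and a median of -0.04 (-0.03 without the clock arrays).

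The letters TTGCATCA, or TGATGCAA on the other strand, spell the composite element bound by ATF4 with C/EBP factors, which switch on amino acid genes. They stood in 0.895% of windows and in 2 of 5 genes of the Slc7 list with a window (Slc7a7 and Slc7a11). In the unfolded protein response list 2 of 24 genes held them (Chac1 and Herpud1). The Slc7a7 window that holds it is given with the element in capitals.
Slc7a7 (chr14:54417895-54418194, minus strand): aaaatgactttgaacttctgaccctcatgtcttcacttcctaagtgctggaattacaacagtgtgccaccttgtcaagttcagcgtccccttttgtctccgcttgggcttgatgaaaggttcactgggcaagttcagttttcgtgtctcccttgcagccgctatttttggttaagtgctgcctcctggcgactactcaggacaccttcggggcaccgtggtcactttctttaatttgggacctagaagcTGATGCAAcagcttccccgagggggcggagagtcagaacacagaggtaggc

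Of 32 measured antioxidant and glutathione genes 22 were higher, with a median of 0.09 (0.14 without the clock arrays); under median scaling 30 were higher and the median was 0.20 above that of all genes. The list mean was 8.05 to 8.07 on water arrays and 8.13 to 8.18 on PAE 3X arrays. Prdx4, the peroxide-reducing enzyme of the ER, was at 12.41, 12.54, 12.41 and 12.58 in water and at 12.83, 13.06, 12.99 and 12.71 in PAE 3X (0.41, SE 0.11; adjusted p = 0.342). The cytosolic superoxide dismutase Sod1 was at 0.32 (SE 0.12) with no overlap, the glutathione transferase Gsta3 at 0.82 (SE 0.32) and Keap1, which restrains NRF2, at 0.27 (SE 0.13). Nqo1, Hmox1, Gclc and Txnrd1, standard targets of NRF2, were not kept, and Gclm was at -0.36 (SE 0.17; -0.04 under median scaling). Of the genes that conjugate phenols and drugs, 9 of 26 were kept, 6 of them higher, with a median of 0.03 (0.06 without the clock arrays); Cyp1a1 and Ugt1a1 were not kept.

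**Figure D4:**
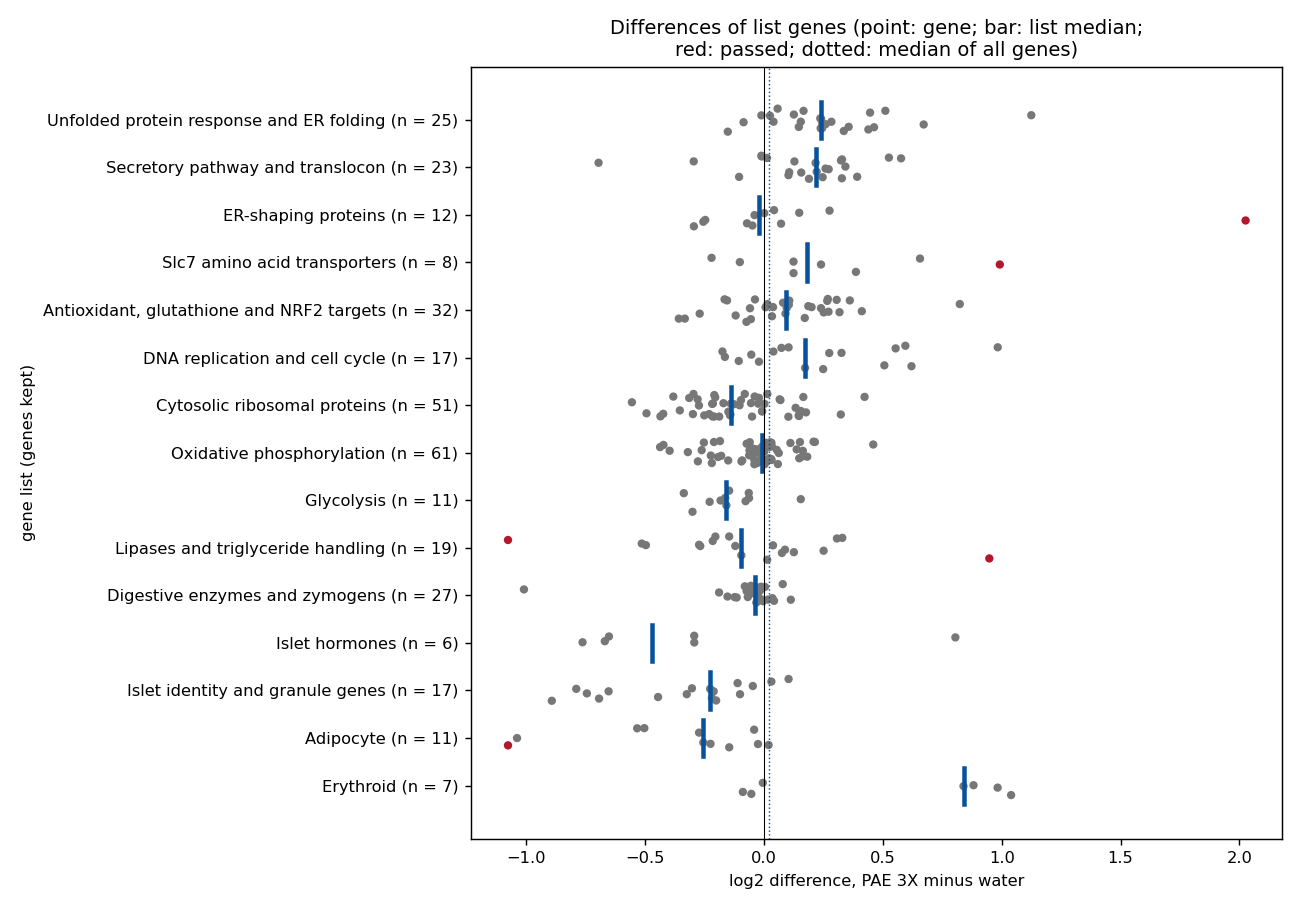
Log2 differences PAE 3X minus water on the x axis for the genes of 15 lists, with 1 point per gene and a bar at the list median; red points passed. ER folding, translocon and Slc7 lists sit to the right of the all-gene median and ribosomal and glycolytic lists to its left.

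Of 51 cytosolic ribosomal protein genes 14 were higher and the median was -0.14; arrays did not overlap for 9 on the lower side and 1 on the higher. Under median scaling 35 were higher and that median was 0.08, which is 0.12 below the median of all genes. Rps3a1 was at 8.85, 8.88, 9.30 and 9.11 in water and at 8.29, 8.42, 8.81 and 8.39 in PAE 3X (-0.56, SE 0.22), and Rpl29 and Rpl34 were at -0.35 and -0.32. Rps27l, a paralog known as a p53 target, ran the other way (0.42, SE 0.12). The list mean was 11.48 to 11.55 in water and 11.37 to 11.43 in PAE 3X, and without the 5 clock arrays the median was -0.04.

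In glycolysis 1 of 11 genes was higher, with a median of -0.16; under median scaling 9 were higher, with a median of 0.14, which is 0.06 below the all-gene median. Without the clock arrays the median was -0.21. Gapdh was at 8.55, 8.48, 8.66 and 8.73 in water and at 8.23, 8.25, 8.19 and 8.41 in PAE 3X (-0.34, SE 0.14), but 0.02 under median scaling. Of 61 oxidative phosphorylation genes 27 were higher, with a median of -0.01 (-0.02 without the clock arrays), and arrays did not overlap for 4, all lower. Under median scaling 58 were higher, with a median of 0.31, which is 0.11 above the all-gene median. Among these Ndufs7 was at 10.33, 10.14, 10.27 and 10.36 against 9.86, 9.86, 9.87 and 9.83, and Ndufa11 was at -0.44 (SE 0.13); under median scaling they were at -0.07 and -0.09. In the citrate cycle 9 of 21 were higher, with a median of -0.02, and in fatty acid oxidation 15 of 22, with a median of 0.06; without the clock arrays the medians were -0.12 and 0.10. In gluconeogenesis, Fbp2 included, 5 of 8 were higher, with a median of 0.12 (0.21 without the clock arrays).

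Among enzymes of serine, glycine and one-carbon metabolism 7 of 14 were higher and the median was -0.02; without the clock arrays 3 of 14 were higher, with a median of -0.18. Mat1a, already described, and the mitochondrial Shmt2 (0.46, SE 0.19) did not overlap with water. Ahcy, which clears the product of methylation reactions, was at -0.34 (SE 0.13) and at 0.01 under median scaling.

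Of 27 digestive enzymes 6 were higher, the median was -0.04 (-0.03 without the clock arrays), and 26 differed by under 0.2 in either direction. Most of these probes lay near the top of the signal range, so small values do not show that their RNA was unchanged. The list mean was 13.83 to 13.86 on water arrays and 13.70 to 13.81 on PAE 3X arrays, and under median scaling the list median was 0.20 below that of all genes, with 1 of 27 above it. Gp2, the zymogen granule protein, was at 14.35, 14.45, 14.45 and 14.32 in water and at 14.14, 14.25, 14.19 and 14.24 in PAE 3X (-0.19, SE 0.11). Amy1 was the exception in size, at -1.01 (SE 0.68), with values of 8.12 and 7.82 on PAE 3X 1 and 4 and 9.27 and 9.64 on PAE 3X 2 and 3. Acinar transcription factors had 4 of 8 members higher and a median of -0.07 (-0.08 without the clock arrays).

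Islet genes were lower on average through 1 water array. Of 6 hormone genes 1 was higher, with a median of -0.47, and of 17 islet identity genes 2 were higher, with a median of -0.23. Ins2 was at 12.44, 12.61, 12.42 and 14.15 in water and at 11.06, 11.47, 13.21 and 13.19 in PAE 3X (-0.67, SE 0.66). Without the 5 clock arrays, water 4 among them, the medians were 0.12 and 0.02, and leaving out single arrays took the hormone median from -0.87 to 0.11. Glp1r, Slc2a2 and Mafa were not kept.

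Of 7 kept red cell genes 4 were higher, a share near that of all genes, and the median was 0.84; 0 passed. Leaving out single arrays took that median from 0.54 to 1.18, and without the 5 clock arrays 6 were higher, with a median of 1.51. The haemoglobin gene Hba-a1 was at 9.88, 10.07, 11.16 and 10.61 in water and at 12.36, 10.62, 11.21 and 11.69 in PAE 3X (1.04, SE 0.44), and Alas2 of erythroid haem synthesis was at 0.98 (SE 0.32) with no overlap. The list means overlapped, at 6.90 to 7.37 in water and 7.11 to 8.16 in PAE 3X. With this list mean as a covariate 6 probes passed and Fbp2 did not (adjusted p = 0.0764).

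**Figure D5:**
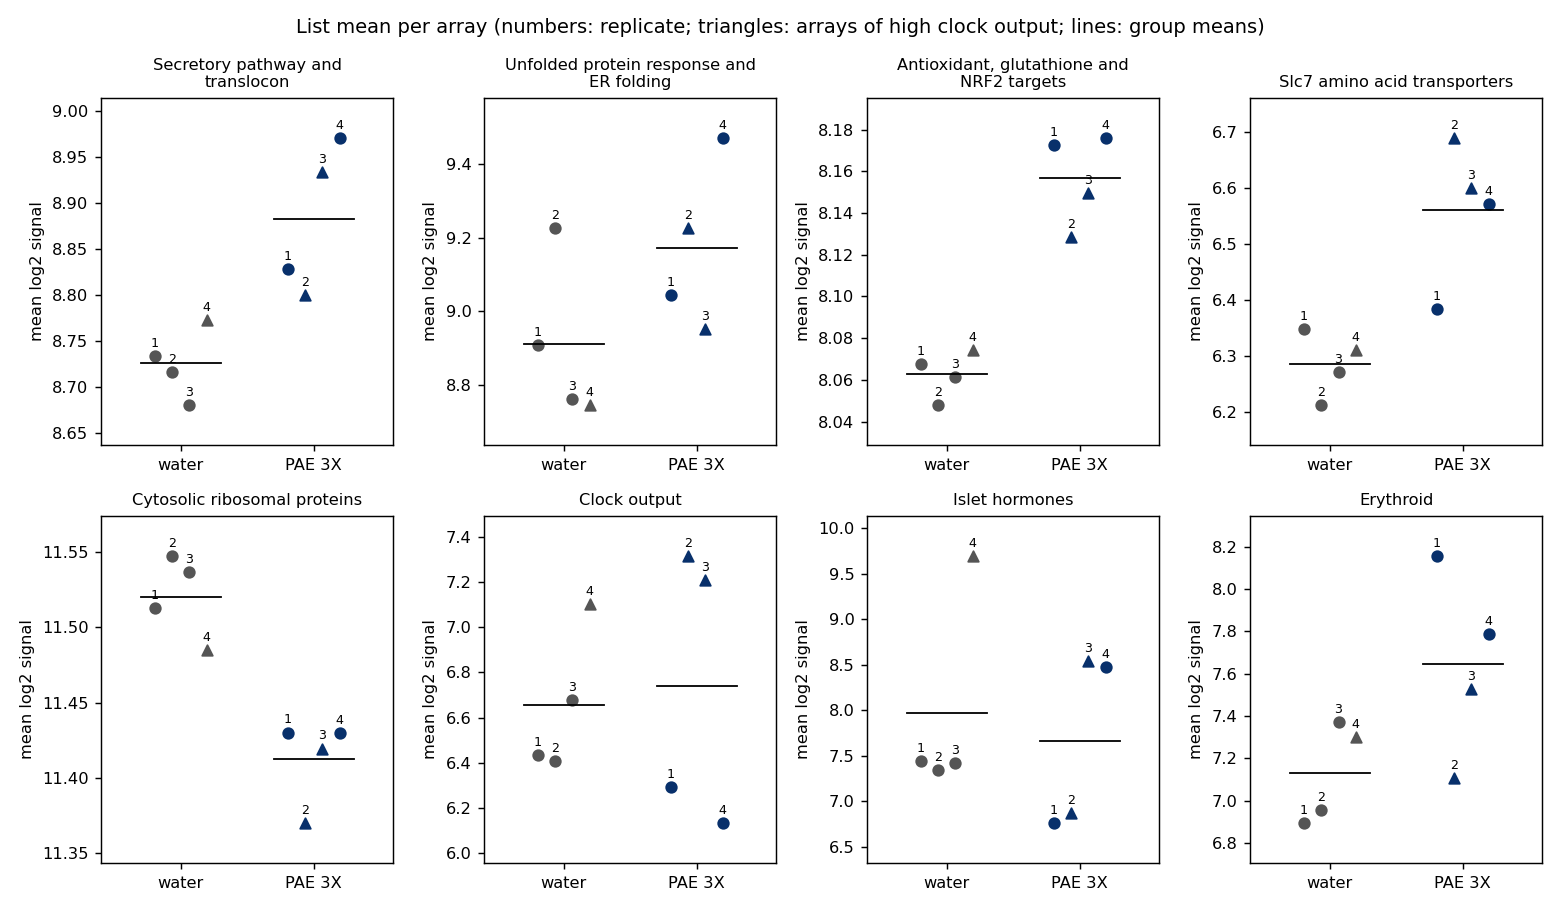
Mean log2 signal of the genes of 8 lists on each of the 8 arrays, with the replicate number beside each point, triangles for arrays of high clock output and lines for group means. Translocon, antioxidant, Slc7 (Slc7a3 included) and ribosomal means do not overlap between the groups, whereas clock output, islet hormone and erythroid means do.

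Replication genes had 12 of 17 measured members higher and a median of 0.17 (0.16 without the clock arrays), and the helicase subunits again followed PAE 3X 2 and 3: Mcm5 was at 5.73 and 5.45 there and at 4.80 and 4.91 on PAE 3X 1 and 4, against 4.47 to 4.85 in water. Mcm2 differed by 0.59 (SE 0.23) and overlapped. Pcna and Top2a were not kept. Duct (4 of 8 higher, median -0.12), stellate and matrix (3 of 12, -0.11), endothelial (4 of 11, -0.04), interferon (3 of 11, -0.05) and acinar injury genes (4 of 10, -0.04) had 0 members past the threshold. Without the clock arrays these 5 medians were -0.12, -0.35, -0.27, 0.11 and -0.07.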

How the data were processed

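Biotin-labelled pancreas RNA was hybridised, per the labels, to 1-colour Illumina bead arrays. The first deposited table gives an average signal intensity and a detection p-value per probe and array, not normalized between arrays, per the file headers. A second deposited table holds log2 values; R 3.1.2 and limma 3.22.1 are named per the submitters' processing notes, and its values matched those used here with a 99th percentile difference of 0.00194. Scanner settings and chip positions are not given in the sources used here.

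Here signals were normalized with neqc (limma 3.58.1, R 4.3.3, offset 16, background from detection p-values) and taken to log2. Group means of all 24 arrays were fitted with lmFit and eBayes, two-sided, with Benjamini-Hochberg adjustment over 15328 probes. Symbols came from GEO's platform annotation, updated through RefSeq (GRCm38.p6) gene IDs; 8 kept probes had several symbols and 2234 none. Tests were checked on simulated data. The number of arrays limits precision. Replicate numbers gave no clear sign of pairing: same-number residual correlations were 0.20, 0.09, -0.15 and -0.18, and other-number ones ran from -0.27 to 0.31. So few correlations cannot exclude a batch shared by number.

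The text names every probe that passed, the next 15 on each side, the 6 largest detection bounds each way, up to 4 genes of smallest p per list and defining markers; Reep5, Lmf1, Gclm, Hspa5 and Dbp were named after their values were seen. The members and 55 gene lists were chosen with earlier results of these data known.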

Additional observations from a re-analysis of the deposited data

Results flagged for a closer look

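Among 98 sets of 4 arrays examined for 1 sample far from the rest (chance flags about 1 in 20), 5 held one. Islet hormone genes averaged 9.69 on water 4, against 7.35 to 7.43 on the other water arrays, and islet identity genes 6.56 against 5.17 to 5.22. Nt5dc2 was at 5.59 on PAE 3X 3 against 4.90 to 4.92 on the others. Lamb3 was at 6.05 on water 1 against 5.66 to 5.72, and Mat1a at 9.53 on water 2 against 9.87 to 9.91.

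The effects of PAE 3X and AFFB, both against the same water arrays, differed by limma's direct test for 5 genes. The difference, PAE 3X minus AFFB, was 1.18 for Lamb3 and 0.92 for the measured means of Moxd1. Moxd1 was not above background in AFFB, so its change is a bound of at least 1.59-fold. For Slc6a4 the difference was 0.92, for Casp6 0.76 and for Smim24 -1.46. A brighter Casp6 probe did not pass. Slc6a4, Casp6 and Smim24 differed from water by 0.36, 0.30 and -0.86 with PAE 3X and by -0.57, -0.46 and 0.60 with AFFB, none of which passed. What sets the beverage and the extract apart was not tested.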

How the results depend on the processing

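Against water, 7 probes passed; the count was 12 with no background correction, 16 with median scaling (16 higher, 0 lower), 1 with no filter on detection, 33 with array weights, 28 with the clock output covariate, 0 without the 5 clock arrays, 12 with the adipocyte covariate, whose list holds Lpl, and 3 with the islet covariate, which was chosen after seeing the data. Against AFFB, 5 passed, and the count was 2 with no filter, 3 with an intensity trend, 0 with only the groups compared, 2 with the replicate block, 1 without the 5 clock arrays and 3 with the erythroid covariate. The cause of each was not tested, except that dropping arrays and adding probes change what is tested. With only the groups compared 6 passed against water, with 3 of the 7 shared; Lpl, Slc7a3, Fbp2 and Azgp1 were lost. With only probes detected on all arrays 7 passed and 5 were shared, since Moxd1 and Slamf9 were then not tested. With the replicate block 9 passed against water, all 7 genes among them, though the replicate numbers gave no clear sign of pairing. Leaving out 1 array gave 1 to 15 calls against water, 0 against PAE 1X in all 24 fits, 0 to 3 against PAE 0.1X and 2 to 7 against AFFB. The count against water was 1 without water 2, water 4 or PAE 3X 1, 2 without water 3, PAE 3X 2 or PAE 0.1X 2, 3 without PAE 1X 3, 4 without PAE 3X 3, 14 without AFFB 1 or PAE 1X 2 and 15 without PAE 1X 4. Against PAE 0.1X it was 1 without AFFB 1 (Lamb3) and 3 without PAE 3X 1 (Acot1, Angptl4 and Hadhb). Against AFFB it was 2 without AFFB 2, AFFB 3, PAE 3X 2, water 1 or sitagliptin 2 and 3 without AFFB 1, AFFB 4, PAE 3X 3, water 3 or sitagliptin 4.

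Of these 24 fits, Azgp1 passed in 9, Fbp2 in 12, Slamf9 in 15, Slc7a3 and Lpl in 16, Reep6 in 21 and Moxd1 in every one. Reep6 was lost without PAE 3X 1, water 2 or water 4. Lpl and Slc7a3 were lost without PAE 0.1X 2, PAE 1X 3, PAE 3X 1, 2 or 3, or water 2, 3 or 4. Slamf9 was lost without PAE 0.1X 2 or any of the 8 arrays compared. Fbp2 was lost without any water array, PAE 3X 1, 2 or 4, PAE 0.1X 1 or 2, PAE 1X 3, AFFB 4 or sitagliptin 4. Azgp1 was lost without any water, PAE 3X or PAE 0.1X array, PAE 1X 1 or 3, or AFFB 4. Over all alternatives the 37 named probes kept their direction. They were picked by smallest p on these same arrays, so this is no separate support for them. The adjusted p in limma ran from 0.000235 to 0.106 for Moxd1 and from 0.00179 to 0.186 for Reep6. With 4 arrays a group and a median SE of 0.17 on the log2 scale, small differences could not be detected, and probes near background give only bounds.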
